A study of Mus musculus with 22 samples.

Results

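The mouse mitochondrial genome carries 37 genes, 13 of which encode proteins, 2 encode ribosomal RNAs and 22 encode transfer RNAs. All 37 were found by their symbols, which start with mt-, among the 55487 genes counted in brown adipose tissue (BAT), the fat depot that burns fuel to make heat. CPEB2 is an RNA-binding protein that regulates the translation of its target mRNAs. BAT was taken from untreated CPEB2-WT mice (WT, n = 5) and untreated mice lacking CPEB2 in the whole body (CPEB2-KO, here KO, n = 5), labelled male and aged 21 to 25 weeks. A second cohort received adeno-associated virus (AAV) in the interscapular BAT at 16 weeks, 20000000000 vector genomes in 30 µl, and BAT was collected 9 weeks later at 25 weeks. Mice of either genotype received virus for GFP or for flag-tagged PRDM16, which gave 4 groups of 3 labelled male mice, named here by genotype and virus (for example KO + AAV-PRDM16). GFP served as the control protein, and PRDM16 is a transcriptional regulator of brown fat identity. All mice were fed chow, and 1 library was made per mouse. The study states that the untreated mice went without food for some hours before BAT collection, and names no such step for the AAV mice. The comparisons asked whether loss of CPEB2, or PRDM16 supplied by virus, went with a change in the RNA of the mitochondrial genome.

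Both strands of the mitochondrial genome are transcribed into long precursors, which are cut mostly at the tRNAs that lie between the other genes. The protein-coding members are all core subunits of the respiratory chain or of the ATP synthase and depend on nuclear-encoded partners for assembly. Complex I takes mt-Nd1 to mt-Nd6 and mt-Nd4l, complex III takes mt-Cytb, complex IV takes mt-Co1 to mt-Co3, and the ATP synthase takes mt-Atp6 and mt-Atp8. Brown adipocytes are dense in mitochondria, and their respiratory chain feeds the proton gradient that UCP1 dissipates as heat.

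Libraries held between 55320927 and 162721202 counts. Cpeb2, the deleted gene, was at 7.70 to 14.3 CPM (counts scaled to library size) in untreated WT and at 2.11 to 5.78 CPM in 4 libraries labelled KO, but the library labelled KO 1 held 11.7 CPM, inside the WT range. In the AAV cohort the 6 KO libraries held 4.33 to 5.55 CPM and the 6 WT libraries 10.5 to 14.0 CPM, and Prdm16 was at 45.9 to 127.8 CPM with AAV-PRDM16 and at 23.9 to 40.2 CPM with AAV-GFP. Y-linked transcripts were present in 3 of 5 WT and 1 of 5 KO untreated libraries and in all 12 AAV libraries, so 6 untreated libraries went against their label of male. The summed CPM of 15 skeletal muscle markers ran from 61.0 to 3923 in untreated WT and from 46.0 to 8178 in untreated KO, against 28.4 to 145 in the AAV cohort. The part of muscle tissue in the untreated values was not tested. The 10 brown adipocyte markers summed to 3906 to 12020 CPM in untreated KO and 4371 to 8193 CPM in untreated WT. In bulk tissue fewer cells of a type and less RNA per cell cannot be told apart.

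The sequences of 4 tRNA genes are shown because the results below turn on them. mt-Te carried the most counts of any tRNA gene, and mt-Ts1 was among the few members that were not below WT in untreated KO. mt-Td and mt-Tg each stood out in few libraries of the AAV cohort. They were read from the GENCODE M21 transcripts (GRCm38), 5′ to 3′ in the sense of the tRNA, with the anticodon in capitals. mt-Te (glutamate, chrM:14071-14139) and mt-Ts1 (serine, chrM:6870-6938) lie on the minus strand, and mt-Td (aspartate, chrM:6942-7011) and mt-Tg (glycine, chrM:9391-9458) on the plus strand.
mt-Te: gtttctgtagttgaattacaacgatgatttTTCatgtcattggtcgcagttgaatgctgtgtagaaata
mt-Ts1: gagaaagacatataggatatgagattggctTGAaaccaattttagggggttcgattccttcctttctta
mt-Td: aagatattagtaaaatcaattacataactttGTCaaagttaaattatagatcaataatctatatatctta
mt-Tg: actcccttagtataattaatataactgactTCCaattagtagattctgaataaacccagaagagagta

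Some members share bases with a neighbour, so a read there can be counted for either gene. The longest overlap is the 43 bases at chrM:7927-7969 where mt-Atp8 ends and mt-Atp6 begins on the same strand, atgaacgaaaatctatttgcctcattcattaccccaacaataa. mt-Nd5 and mt-Nd6 share 14 bases on opposite strands, and mt-Nd4l and mt-Nd4 share 7. Whether the counting used strand is not given in the sources used here.

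A larger uncertainty came from a stretch of nuclear DNA. There, 7 annotated pseudogenes within 4663 bases of chromosome 1 (GRCm38 chr1:24611535-24616197, minus strand) repeat mitochondrial genes almost letter for letter. Gm28661, Gm10925, Gm28437 and Gm10222 were identical to mt-Co2 over 681 bases, mt-Atp6 over 678, mt-Co3 over 783 and mt-Nd4l over 294, and Gm28439 was identical to mt-Nd4 over 876 of its 1378 bases. Gm28438 differed from mt-Nd3 at 1 of 345 bases, T3C counted from the first base of mt-Nd3. The first bases of both are shown with the differing base in capitals.
mt-Nd3: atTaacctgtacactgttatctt
Gm28438: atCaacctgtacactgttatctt
For mt-Atp6, mt-Co2, mt-Co3, mt-Nd3 and mt-Nd4l the median ratio of a member's counts to those of its copy was between 0.951 and 1.09 in both cohorts. For mt-Atp6 the ratio of member to copy was between 0.947 and 1.10 in the 10 untreated libraries and between 0.870 and 1.04 in the 12 AAV libraries, and for mt-Co2 the lowest and highest ratios over both cohorts were 0.988 and 1.32. mt-Nd4, whose copy covers only part of it, had 1.71 to 2.62 times the counts of the copy, and mt-Co1, whose copy Gm29216 covers 492 of its 1545 bases, had 6.50 to 29.0 times the counts of the copy. Such reads cannot be assigned to either locus, and the copies together held 6.67% to 11.9% of a library's counts. Only annotated transcripts were searched, so the bases between the 7 pseudogenes were not compared with the other members.

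Levels of different genes were compared per kilobase (CPM per kb of gene, over all 22 libraries). mt-Co1, the catalytic subunit of complex IV, had the highest median, 63850 CPM per kb (range 52150 to 79547). mt-Atp8 followed at 38240 and mt-Cytb at 37825, with overlapping ranges of 12744 to 49693 and 27042 to 45728. The lowest protein-coding members were mt-Nd6, the only one read from the light strand, at 4489 (3677 to 9959), and mt-Nd3 at 1859 (760 to 10399). With the chromosome 1 copies added, mt-Atp6 moved from rank 4 to rank 2 (30655 to 62387 CPM per kb), mt-Nd4l from rank 6 to rank 3 (22979 to 45066) and mt-Co2 from rank 7 to rank 4 (22389 to 42214), while mt-Co1 stayed first at 68999. mt-Atp8 and mt-Atp6 are carried on 1 mRNA, as are mt-Nd4l and mt-Nd4, yet after the copies were added the medians within each pair stood further apart (38240 for mt-Atp8 against 62387 for mt-Atp6). The order of the protein-coding members therefore depended on how copy reads were treated, apart from mt-Co1 at the top and mt-Nd6 and mt-Nd3 at the bottom.

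**Figure D1:**
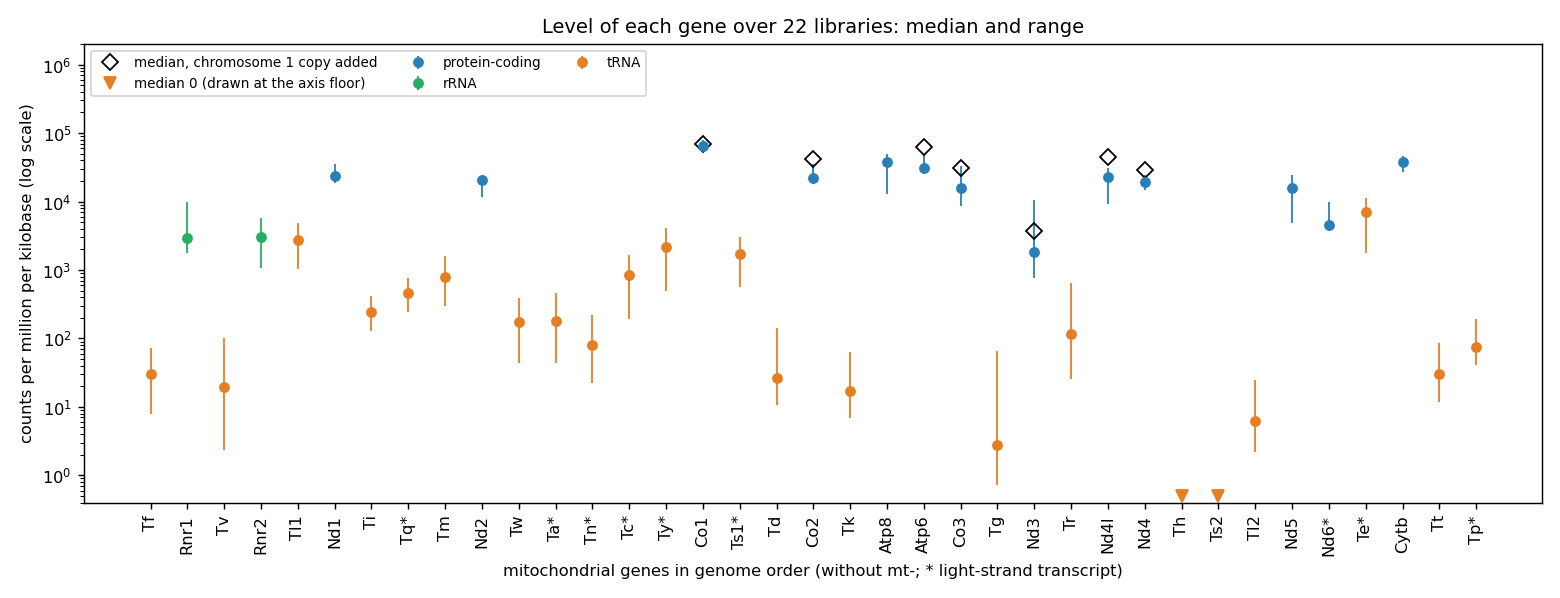
Median and range over 22 libraries of the level of each mitochondrial gene, in CPM per kb on a log scale, in genome order; diamonds give the median with the chromosome 1 copy added. The protein-coding genes (blue) sit above most tRNA genes (orange), mt-Te reaches 6958 CPM per kb, and mt-Th and mt-Ts2 have a median of 0.

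In these mRNA libraries the rRNAs had a median of 2897 CPM per kb for mt-Rnr1 (12S, small ribosomal subunit) and 3082 for mt-Rnr2 (16S, large subunit). Without the copies added, both were below the medians of all protein-coding members except mt-Nd3. Among the tRNA genes the levels differed widely. The 6 highest by mean CPM were mt-Te, mt-Tl1, mt-Ty, mt-Ts1, mt-Tm and mt-Tc, which carry glutamate, leucine, tyrosine, serine, methionine and cysteine, and mt-Te had a median of 6958 CPM per kb (1759 to 11311). mt-Th and mt-Ts2, for histidine and serine, had a median of 0 and reached at most 1.85 and 1.25 CPM per kb. The 8 light-strand tRNA genes took 66.4% to 75.8% of all tRNA counts. tRNA genes are 59 to 75 bases long, and whether their reads came from mature tRNAs or from precursors was not tested.

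The 37 genes took 24.6% to 38.9% of the counts of a library. In untreated WT the share was 35.0%, 32.0%, 38.9%, 32.3% and 38.8% in mice 1 to 5, a mean of 35.4% ± 3.37 (SD, n = 5). In the libraries labelled KO it was 33.2%, 24.9%, 28.2%, 34.5% and 24.6%, a mean of 29.1% ± 4.61 (SD, n = 5). In KO, 3 libraries lay below every WT library and the other 2 lay among them, so the groups overlapped, and the difference of -6.32 percentage points is given as a description. Without WT mice 1 and 2, which stood apart as described below, it was -7.60, and without KO 1 it was -7.34. In the AAV cohort the group means were 31.3% ± 1.76 for WT + AAV-GFP, 32.2% ± 0.801 for WT + AAV-PRDM16, 31.3% ± 2.05 for KO + AAV-GFP and 33.1% ± 3.43 for KO + AAV-PRDM16 (SD, n = 3 each). Their ranges overlapped throughout. The difference of 1.77 points for PRDM16 against GFP in KO was -0.124 without KO + AAV-PRDM16 replicate 3, and that of 0.944 for KO against WT with AAV-PRDM16 was -0.949. Adding the copies raised the share to 32.1% to 50.8% and kept the untreated difference at -6.79 points.

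**Figure D2:**
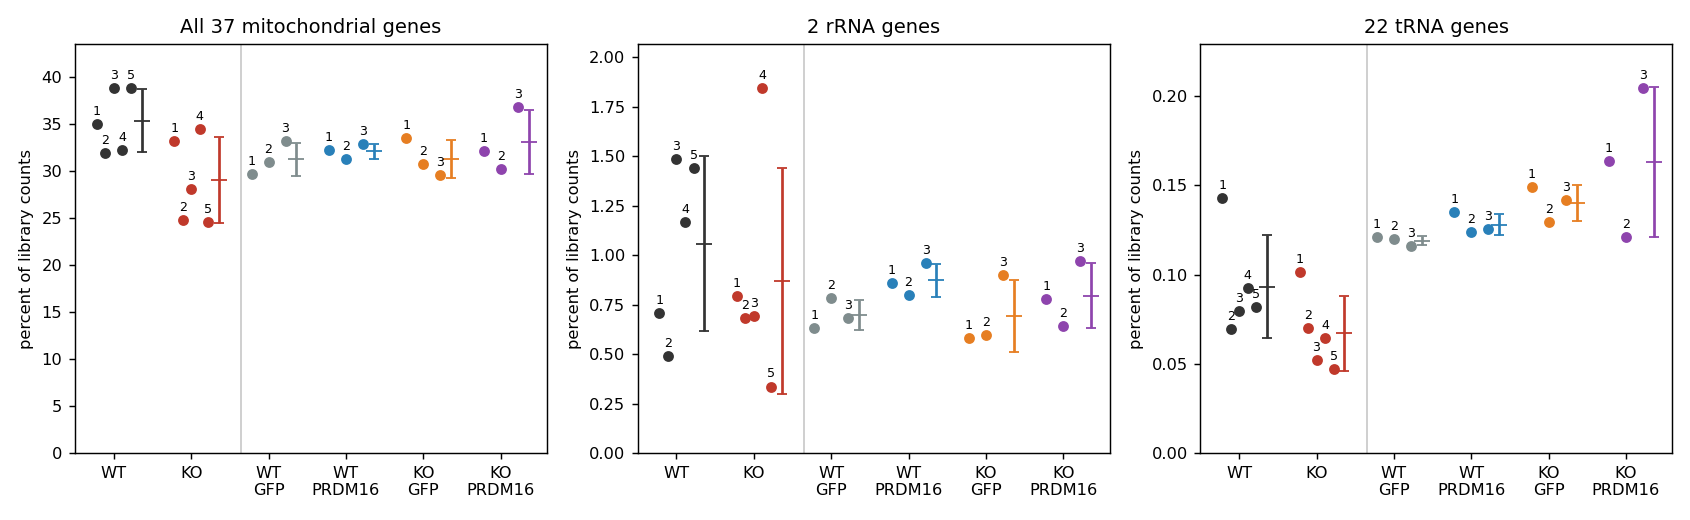
Percent of library counts on all 37 genes, the 2 rRNA genes and the 22 tRNA genes; each point is 1 mouse with its replicate number, and the bar gives mean ± SD. The share of all members overlaps between every pair of groups, and KO + AAV-PRDM16 replicate 3 has the highest tRNA share, 0.205%.

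By RNA class, protein-coding members held 24.1% to 37.3% of library counts, rRNA members 0.338% to 1.85% and tRNA members 0.0473% to 0.205%. rRNA varied most among untreated mice. The library labelled KO 4 had 1.85% and KO 5 had 0.338%, while WT ran from 0.491% to 1.49%. The tRNA share was 0.116% to 0.205% in the AAV cohort and 0.0473% to 0.143% in the untreated cohort. The cohorts were deposited as separate tables, and their difference was not tested.

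The division of counts among the 13 protein-coding members set untreated WT mice 1 and 2 apart from the other 8 untreated libraries. mt-Nd5, a proton-pumping subunit of complex I, took 13.1% and 12.2% of the protein-coding counts in these 2 mice, against 3.12% to 5.69% in the other 8. mt-Nd3, a small complex I subunit, took 0.120% and 0.0842%, against 0.477% to 0.970%. mt-Co3 of complex IV took 2.24% and 2.18%, against 4.45% to 6.93%. In all, 4 of the 13 (mt-Nd5, mt-Nd4, mt-Nd4l and mt-Atp8) were higher in both mice than in every other untreated library, 5 (mt-Nd1, mt-Nd3, mt-Co2, mt-Co3 and mt-Atp6) were lower, and 4 overlapped, among them mt-Cytb and mt-Co1. The 12 AAV libraries differed from those 8 untreated libraries without overlap in 7 of the 13, each in the same direction as WT mice 1 and 2, with 8.17% to 12.1% on mt-Nd5 and 0.141% to 0.228% on mt-Nd3. The 13 percentages have a fixed sum, so they are not independent of each other. How many of all genes lack overlap in these splits is not given here. The muscle markers summed to 221 and 232 CPM in WT mice 1 and 2, within the range of the other untreated libraries, and both carried Y-linked transcripts, as did 2 of the other 8. Brown adipocyte, T and B cell and endothelial markers overlapped too. Markers of adipocytes of any kind summed to 5845 and 5330 CPM in these 2 mice, against 6293 to 14130 in the other 8 (4585 to 5637 in the AAV cohort). Blood markers summed to 260 and 274 CPM against 337 to 4035 (178 to 370 in the AAV cohort). Macrophage markers summed to 16.3 and 20.2 CPM against 23.85 to 124 (16.1 to 96.0 in the AAV cohort). The ratio of mt-Co1 to its copy also set WT mice 1 and 2 apart, at 19.8 and 29.0 against 6.50 to 9.73 in the other untreated libraries and 14.3 to 17.9 in the AAV cohort. The cause of the split was not tested, and the counts of untreated members and several named members are given below also without these mice.

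**Figure D3:**
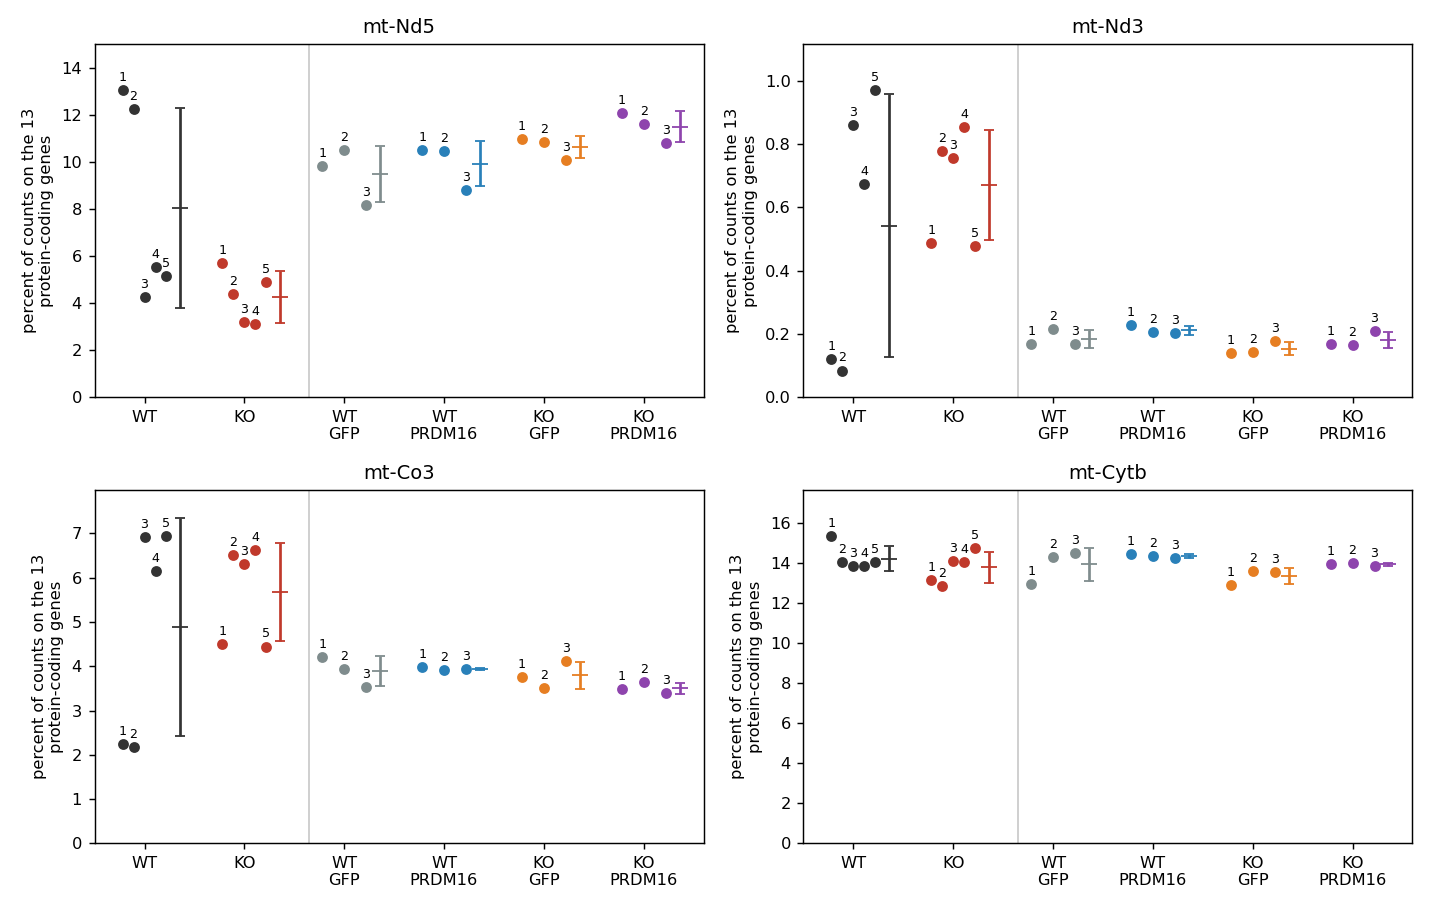
Percent of the counts on the 13 protein-coding genes taken by mt-Nd5, mt-Nd3, mt-Co3 and mt-Cytb; each point is 1 mouse with its replicate number, and the bar gives mean ± SD. WT mice 1 and 2 lie at 13.1% and 12.2% for mt-Nd5 while the other 8 untreated libraries stay at or below 5.69%, and the mt-Cytb values of the other libraries overlap between the groups.

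In untreated BAT, no member passed the threshold of an adjusted p of 0.05 for KO against WT (edgeR's quasi-likelihood test), as was so for all 17869 genes tested (0.0% called). Of the 35 members tested, 32 had a lower and 3 a higher fitted level in KO, with a median log2 fold change (log2FC) of -0.56 against 0.04 over all genes. All 13 protein-coding members were on the lower side, with a median of -0.45. Without WT mice 1 and 2 the counts were again 32 lower and 3 higher, with a median of -0.46. An unadjusted p under 0.05 was reached by 10 members, each of them lower, where 15.9% of all genes reached it. This count was 0 without WT mice 1 and 2 and 1 without WT mouse 1 alone. It was 3 without KO 2 or without KO 3, 4 without KO 5, 7 without WT mouse 5 and 9 without KO 4. It rose to 11 without WT mouse 4 and to 12 without KO 1, WT mouse 2 or WT mouse 3. Without KO 1, whose Cpeb2 level was in the WT range, 32 members were again lower, with a median of -0.66. The share of all genes in these fits is not given here. DESeq2 called 0 members and 0.0% of all genes. By the study's looser thresholds of a 2-fold change and an FDR of 0.5, 4 members passed (mt-Nd5, mt-Te, mt-Tl2 and mt-Tr), where 10.8% of all genes did. No member separated the 5 KO from the 5 WT libraries, where 1.4% of all genes did.

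Among complex I members mt-Nd5 had the largest difference. Its level was 47687, 38829, 16904, 16081 and 23094 CPM in WT mice 1 to 5 and 17884, 7221, 9187, 11165 and 12059 CPM in the libraries labelled KO. The log2FC was -1.31 ± 0.39 (SE, edgeR's quasi-likelihood test, adjusted p = 0.305), and the groups overlapped only through KO 1, which was above WT mice 3 and 4. Without WT mice 1 and 2 it was -0.65 ± 0.34 (edgeR, adjusted p = 0.867). mt-Nd4l stood at -0.74 ± 0.32 and mt-Nd6, the light-strand member, at -0.66 ± 0.34, and mt-Nd1, mt-Nd2 and mt-Nd4 between -0.45 and -0.47. mt-Nd3 was at 439, 267, 3430, 1957 and 4361 CPM in WT and at 1534, 1273, 2171, 3053 and 1173 CPM in KO, a log2FC of -0.18 ± 0.64. Every KO library was above WT mice 1 and 2 and below WT mice 3 and 5, and without WT mice 1 and 2 the value was -0.77 ± 0.39.

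In the other complexes the fitted differences were smaller than that of mt-Nd5. mt-Cytb, the complex III member, stood at -0.45 ± 0.31, and mt-Co1, mt-Co2 and mt-Co3 of complex IV at -0.25, -0.11 and -0.24. For the ATP synthase, mt-Atp8 stood at -0.83 ± 0.37 and mt-Atp6, on the same mRNA, at -0.34 ± 0.33. They share bases and mt-Atp6 has an annotated nuclear copy, and the part of either in this gap was not tested. An unannotated copy of mt-Atp8 was not searched for. Without WT mice 1 and 2 the 13 log2FC values ran from -0.30 for mt-Co1 to -0.77 for mt-Nd3, none with an unadjusted p under 0.05.

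Both rRNAs were lower in KO on average but with wide spread. mt-Rnr1 had a log2FC of -0.28 ± 0.55 and mt-Rnr2 of -0.49 ± 0.46, and the library labelled KO 4 held 10249 and 10029 CPM of them, more than any WT library. Without WT mice 1 and 2 they stood at -0.69 ± 0.55 and -0.75 ± 0.51. Among the tRNAs, mt-Te was at 731, 307, 270, 349 and 310 CPM in WT and at 352, 171, 127, 181 and 123 CPM in KO. Only KO 1 reached into the WT range. Its log2FC was -1.04 ± 0.37 (edgeR, adjusted p = 0.305). mt-Tl1 stood at -0.80 ± 0.31, mt-Tm at -0.90 ± 0.37, mt-Tc at -0.84 ± 0.35 and mt-Ty at -0.86 ± 0.36. Without WT mice 1 and 2 these 5 ran from -0.69 for mt-Tl1 to -0.50 for mt-Ty, with mt-Te at -0.65 ± 0.35. mt-Ts1 went the other way, at 0.51 ± 0.42, with 41.0 and 49.9 CPM in WT mice 1 and 2 against 110 to 226 CPM in the other 8 libraries, and at 0.06 ± 0.31 without those mice. The other 2 members on the higher side were mt-Td at 0.46 ± 0.39 and mt-Tg at 0.99 ± 0.56, both named after their values were seen. mt-Th and mt-Ts2 held too few counts to be tested.

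**Figure D4:**
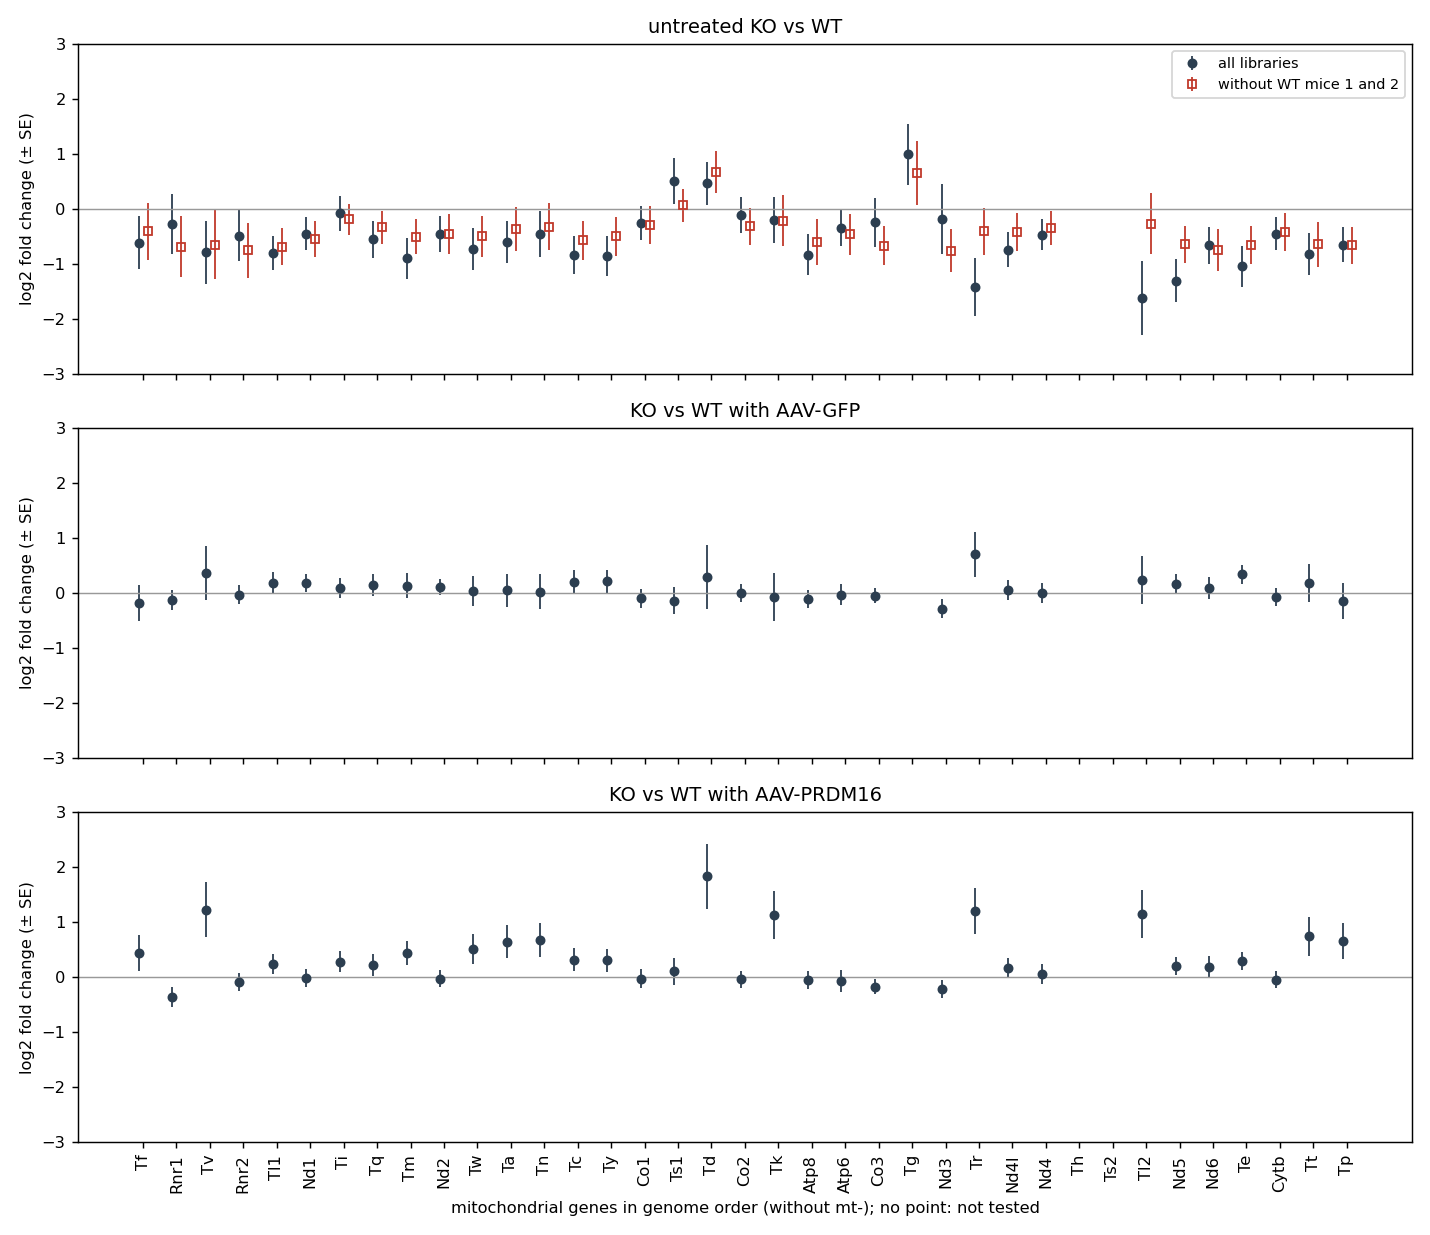
log2 fold change ± SE of each tested member for KO against WT in untreated BAT, with AAV-GFP and with AAV-PRDM16, in genome order; open squares leave out WT mice 1 and 2. Most untreated values lie below 0, whereas the protein-coding members of the AAV cohort lie between -0.29 and 0.21 in both panels, and 4 tRNAs other than mt-Td stand above 1 with AAV-PRDM16.

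With AAV-GFP, the fitted differences between KO and WT lay on both sides of 0, with 20 members higher and 14 lower. None of the 34 members tested was called by edgeR, none by DESeq2, and none had an unadjusted p under 0.05, while edgeR called 10 of 18899 genes (0.0529%), DESeq2 called 1.64% and 9.18% had an unadjusted p under 0.05. None passed the 2-fold and FDR 0.5 thresholds either (1.8% of all genes). The protein-coding members had a median log2FC of 0.00, from -0.29 for mt-Nd3 to 0.19 for mt-Nd1. mt-Nd5 was at 27980, 30642 and 27446 CPM in WT + AAV-GFP and at 39935, 33183 and 23882 CPM in KO + AAV-GFP, a log2FC of 0.17 ± 0.17. The KO libraries spanned both sides of WT. mt-Te was at 444, 519 and 489 CPM in WT and at 733, 590 and 514 CPM in KO, a log2FC of 0.34 ± 0.17 (edgeR, adjusted p = 0.588). A single member, mt-Tr for arginine, had all KO libraries above all WT libraries (11.1 to 15.4 against 7.57 to 8.46 CPM), where 13.4% of all genes showed no overlap. The untreated and AAV-GFP comparisons had no mice in common, and the difference between them was not tested.

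With AAV-PRDM16, again no member was called by edgeR (0.0476% of all genes were), 5 of 34 members had an unadjusted p under 0.05 (13.7% of all genes did), and DESeq2 called 1, mt-Td (3.71% of all genes). At 2-fold and an FDR of 0.5, 5 passed (mt-Td, mt-Tk, mt-Tl2, mt-Tr and mt-Tv), where 4.85% of all genes did. The protein-coding members had a median log2FC of -0.03 and a range of -0.22 for mt-Nd3 to 0.21 for mt-Nd5. mt-Nd5 was at 32900, 32497 and 29951 CPM in WT + AAV-PRDM16 and at 36405, 34180 and 39721 CPM in KO + AAV-PRDM16, so all KO libraries were higher, but its log2FC of 0.21 ± 0.17 did not pass (edgeR, adjusted p = 0.619). It and mt-Tl2 were the only members without overlap, against 22.8% of all genes. All 19 tRNA genes tested had a higher fitted level in KO, with a median log2FC of 0.51 against 0.01 over all genes.

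The tRNA values of that comparison rested largely on 1 mouse. KO + AAV-PRDM16 replicate 3 had the highest level of the 12 AAV libraries for 18 of the 19 tRNA genes, mt-Tq being the exception, and more than double the next library for 6. mt-Td was at 0.749, 1.40 and 2.02 CPM in WT + AAV-PRDM16 and at 3.27, 1.62 and 10.1 CPM in KO + AAV-PRDM16. Its log2FC was 1.83 ± 0.60 with edgeR (adjusted p = 0.218) and 1.85 ± 0.56 with DESeq2 (adjusted p = 0.0343), and 0.81 ± 0.48 without that mouse (edgeR, adjusted p = 0.556). mt-Tr was at 7.70, 9.58 and 13.1 CPM in WT and at 14.1, 11.1 and 45.2 CPM in KO, with a log2FC of 1.21 ± 0.42 that became 0.32 ± 0.21 without the mouse. Without it, 17 of 20 tRNA genes tested remained on the higher side, with a median of 0.16, and none had an unadjusted p under 0.05. The 20 include mt-Tg, at -0.24 ± 1.38 with 4 to 7 counts per library in the groups compared. mt-Tg passes the filter there only through WT + AAV-GFP libraries. Without the mouse, mt-Rnr1 and mt-Nd3 were at -0.50 ± 0.19 and -0.46 ± 0.14 (edgeR, adjusted p = 0.394 and 0.305). KO + AAV-PRDM16 replicate 3 also had the fewest counts of the AAV cohort, 61636889.

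PRDM16 against GFP gave no called member in either genotype, nor any called gene (0.0% in each) with edgeR. DESeq2 called 0 members in both, where it called 0.873% of all genes in WT and 1.44% in KO. An unadjusted p under 0.05 was reached by 7.29% of all genes in WT and 6.41% in KO with edgeR. At 2-fold and an FDR of 0.5 no member passed, where 1.46% of all genes did in WT and 2.15% in KO. In WT, 8 members had all AAV-PRDM16 libraries above all AAV-GFP libraries, where 14.2% of all genes showed no overlap. They were mt-Nd1, mt-Nd2, mt-Nd3, mt-Co3, mt-Rnr1, mt-Rnr2, mt-Tl1 and mt-Tq. mt-Rnr1 was at 1784, 2585 and 2345 CPM with GFP and at 2928, 2792 and 3608 CPM with PRDM16. Its log2FC was 0.47 ± 0.18 (edgeR, unadjusted p = 0.0229, adjusted p = 0.569), the 1 member with an unadjusted p under 0.05. mt-Rnr2 stood at 0.32 ± 0.17, mt-Nd1 at 0.27 ± 0.16, mt-Nd2 at 0.25 ± 0.15, mt-Nd3 at 0.29 ± 0.17 and mt-Co3 at 0.11 ± 0.14. In KO, 33 of the 34 members had a higher fitted level with PRDM16, mt-Co3 being the exception, but no member separated the groups, where 9.43% of all genes did, and 4 had an unadjusted p under 0.05 (mt-Td, mt-Tf, mt-Tk and mt-Tm). Here too the tRNA values rested on replicate 3 of KO + AAV-PRDM16. The median over 19 tRNA genes was 0.54, and over 20 tRNA genes without that mouse it was 0.08. The 20 again include mt-Tg, at -0.10 ± 1.39 with 4 to 7 counts per library in the groups compared. Over all members tested without that mouse, 21 were higher and 14 lower, and no unadjusted p fell under 0.05. Between genotype and virus, the interaction test called no member and no gene with edgeR (0.0%), at either threshold. DESeq2 called 0 members and 1 gene (0.0053%). Unadjusted p-values under 0.05 came from 3.19% of all genes, none of them a member. Of 34 members 26 had a positive interaction, and of 35 tested without KO + AAV-PRDM16 replicate 3, mt-Tg among them, it was 13. The comparisons within the AAV cohort share control groups and are not independent of each other.

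mt-Tg, chosen after its values were seen, was left untested in the main fit of the AAV cohort by the filter on low counts. It was at 4.09 and 4.55 CPM in replicates 1 and 3 of WT + AAV-GFP and at 0.0475 CPM in replicate 2. All other 9 AAV libraries held 0.0417 to 0.0894 CPM, and the untreated libraries 0.158 to 1.25 CPM. Its flanking genes mt-Co3 and mt-Nd3 showed no such gap in those 2 libraries.

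**Figure D5:**
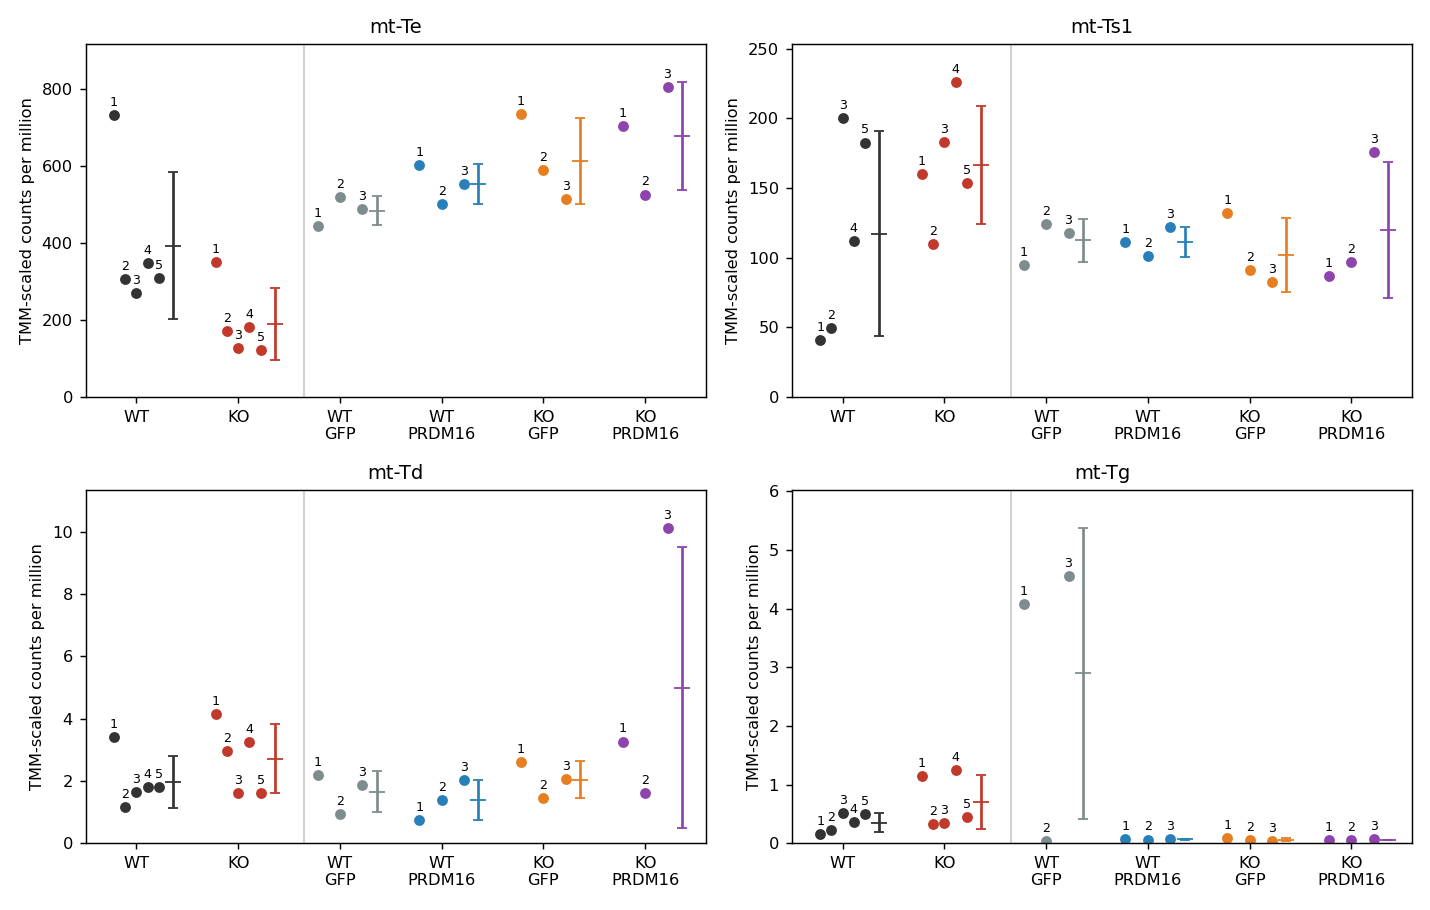
TMM-scaled CPM of mt-Te, mt-Ts1, mt-Td and mt-Tg; each point is 1 mouse with its replicate number, and the bar gives mean ± SD. mt-Td is at 10.1 CPM in KO + AAV-PRDM16 replicate 3, and mt-Tg is above 4 CPM only in WT + AAV-GFP replicates 1 and 3.

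The nuclear genes that express the mitochondrial genome were described for the same comparisons. Of 58 such genes tested in untreated BAT, 38 had lower and 20 higher fitted levels in KO, with a median log2FC of -0.29, and none was called. By role, 8 of 10 genes of transcription were on the lower side (median -0.51), 7 of 8 of mtDNA replication (-0.27), 8 of 14 of RNA processing (-0.31), 8 of 8 of RNA stability and decay (-0.54) and 7 of 18 of RNA modification (0.07). Lrpprc, which stabilises mitochondrial mRNAs, stood at -1.04 ± 0.34, and Grsf1, which binds mitochondrial RNA in granules, at -0.73 ± 0.28. Ptcd3, a protein of the mitochondrial ribosome, stood at -0.83 ± 0.30 (edgeR, adjusted p = 0.305 for each of these 3). Fastk, of the RNA processing genes, went the other way at 0.71 ± 0.33 (edgeR, adjusted p = 0.315). In the AAV-GFP comparison Lrpprc, Grsf1 and Ptcd3 were at 0.00, -0.09 and 0.01 and Fastk at -0.18. The list had a median of -0.04 there. With AAV-PRDM16 the list had a median of -0.19, with 49 of 58 on the lower side, none called by edgeR and 4 by DESeq2, which called 3.71% of all genes. For PRDM16 against GFP, 39 of 58 were higher in WT (median 0.09) and 32 of 58 in KO (0.01). None was called by edgeR or DESeq2, which called 0.873% and 1.44% of all genes. The interaction was negative for 42 of 58 (median -0.10), with none called.

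The nuclear-encoded subunits of complexes I, III, IV and V make up the rest of the machinery that holds the 13 proteins. In untreated BAT 66 of 72 tested had a higher fitted level in KO, with a median log2FC of 0.51, against -0.45 for the 13 mitochondrial partners. edgeR and DESeq2 called none of the 72 and 0.0% of all genes. An unadjusted p under 0.05 with edgeR was reached by 2 of them, 1 higher and 1 lower, where 15.9% of all genes reached it. None separated the KO from the WT libraries, where 1.4% of all genes did. Atp5b and Atp5a1 of the ATP synthase were at 0.28 ± 0.32 and 0.04 ± 0.30, and Uqcrc1 and Uqcrc2 of complex III at 0.60 ± 0.35 and -0.30 ± 0.30. With AAV-GFP all 71 tested had a lower fitted level in KO, with a median of -0.30 against 0.00 for the mitochondrial partners and 0.01 for all genes. Of these, edgeR called 2, Ndufa1 of complex I at -0.82 ± 0.12 and Uqcr11 of complex III at -0.72 ± 0.10 (adjusted p = 0.0326 for both). edgeR called 0.0529% of all genes here, and DESeq2 called 25 of the list and 1.64% of all genes. In untreated BAT Ndufa1 and Uqcr11 were on the higher side in KO, at 0.39 ± 0.56 and 0.77 ± 0.49. With AAV-PRDM16, 70 of 71 were on the lower side, with a median of -0.28 against -0.03, and none was called by edgeR and 22 by DESeq2 (3.71% of all genes). For PRDM16 against GFP, 67 of 71 were higher in WT (median 0.09) and 58 of 71 in KO (0.14). The median of all genes was -0.01 in each. edgeR called none, and DESeq2 called 0 in WT and 3 in KO (0.873% and 1.44% of all genes). An unadjusted p under 0.05 with edgeR was reached by 3 in WT and 18 in KO (7.29% and 6.41% of all genes). The interaction was positive for 44 of 71, with none called. The difference between the nuclear and mitochondrial lists was not tested.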

How the data were processed

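mRNA libraries from BAT of 22 mice were made with the SureSelect XT HS2 mRNA kit. Per the labels, the submitters' processing notes name bcl2fastq 2.20, Trimmomatic 0.36, HISAT2 and the build GRCm38.p6. The counting tool, annotation and handling of strand and duplicate reads are not given in the sources used here. The authors deposited a table of raw counts per Ensembl gene for each cohort, not normalized. GENCODE M21 (GRCm38) gave symbols and positions for 55141 of 55487 identifiers, and blastn 2.17.0 found the nuclear copies among its transcripts. Shares are percent of all counts of a library and gene levels are TMM-scaled CPM, while levels per kilobase use unscaled library totals.

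Counts were tested with edgeR 4.0.16 in R 4.3.3 (filterByExpr, TMM, quasi-likelihood test, two-sided, Benjamini-Hochberg adjustment over 17869 untreated or 18899 AAV genes), with all 12 AAV libraries in 1 fit. The test was checked on simulated counts. Calls use an adjusted p of 0.05. Totals of 55320927 to 162721202 counts make counting error small for protein-coding members, and a count of 0 allows up to 3 counts. p-values measure the spread between these mice. Libraries of a group differed by more than counting noise (median chi-square per gene of at least 4.88). Sums over members were not tested. Named were the 13 protein-coding and 2 rRNA members, the 6 tRNA genes of highest mean CPM, tRNA genes called at 0.05, and of each nuclear list the called genes and up to 4 of highest mean CPM. Other tRNA genes were named after their values were seen. Members and lists were chosen with earlier results of these data known. Alternatives were DESeq2 1.42.0, RLE scaling, scaling on nuclear genes, no filter, only the 2 groups compared, each library left out, a replicate block, no WT mice 1 and 2, Y-linked transcripts as covariate, a 2-fold change with an FDR of 0.5 and, after seeing the data, the chromosome 1 copies added to their members.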

Additional observations from a re-analysis of the deposited data

Results flagged for a closer look

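In untreated WT, replicate 1 lay far from the other 4 mice for 5 tRNA genes. It was at 62.1 CPM for mt-Tc (others 28.9 to 32.8), 169 CPM for mt-Ty (73.3 to 76.8), 3.42 CPM for mt-Td (1.18 to 1.82), 1.88 CPM for mt-Tl2 (0.206 to 0.447) and 731 CPM for mt-Te (270 to 349). mt-Cytb took 15.3% of its protein-coding counts, against 13.8% to 14.1%.

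In untreated KO, replicate 4 lay far above the rest for both rRNAs, with 10250 CPM of mt-Rnr1 (1735 to 3657) and 10030 CPM of mt-Rnr2 (1690 to 4106). Replicate 1, whose Cpeb2 level was in the WT range, lay far above for 4 tRNA genes, with 41.3 CPM of mt-Tc (12.9 to 19.3), 102 CPM of mt-Ty (33.7 to 45.5), 5.27 CPM of mt-Tr (1.77 to 2.14) and 352 CPM of mt-Te (123 to 181). These are 12 values out of 104 groups of 5 that were checked with Dixon's 95% limit of 0.71, and chance alone flags about 1 group in 20. The members of a library are not independent of each other.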

How the results depend on the processing

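No member was called in 6 comparisons with edgeR, and the count stayed at 0 under RLE scaling, scaling on nuclear genes, no filter and the added copies, with only the 2 groups compared in the 4 AAV comparisons of groups, and, in the untreated cohort, the Y-linked covariate and the loss of WT mice 1 and 2. DESeq2 called 1 member in KO against WT with AAV-PRDM16 (3.71% of all genes). At 2-fold and an FDR of 0.5 the count was 4 in untreated BAT (10.8% of all genes) and 5 with AAV-PRDM16 (4.85%). Leaving out single libraries gave 0 to 1 called members for KO against WT with AAV-GFP, for PRDM16 against GFP in WT and for the interaction, in each case 1, mt-Tg, without WT + AAV-GFP replicate 2. mt-Tg passes the filter there only through the 2 libraries where it is high, after the low one is removed, so this is no test of it. Per count of nuclear protein-coding genes, the difference in share was -17.3 points in untreated BAT and 5.05 for PRDM16 against GFP in KO. These have another denominator. Without KO + AAV-PRDM16 replicate 3 the latter difference in share of all counts was -0.124 in place of 1.77. Leaving out single libraries turned the direction of 5 untreated members, mt-Ti (-0.08, at most 0.06) and 4 others, whose ranges were -0.26 to 0.053 for mt-Co2, -0.45 to 0.033 for mt-Co3, -0.47 to 0.27 for mt-Nd3 and -0.91 to 0.0057 for mt-Rnr1. WT replicate 5 turned those 4, WT replicate 3 mt-Nd3 (0.07) and mt-Ti, KO replicate 2 mt-Co2 and mt-Ti, and WT replicate 1 and KO replicate 5 mt-Ti. The cause was not tested. With the replicate block mt-Nd3 in untreated BAT was at 0.47, and no call changed. Libraries of the same replicate number correlated at -0.20 to 0.33 in the untreated and -0.21 to 0.44 in the AAV cohort, so the numbers were not taken to pair mice. In the main fits the filter on low counts left out mt-Th, mt-Ts2 and, in the AAV cohort, mt-Tg.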
